A study of Mus musculus with 32 samples.

Results

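The 10 genes described here are imprinted growth genes of the mouse, taken by symbol from a table of 24421 genes: H19, Igf2, Dlk1, Meg3, Ndn, Peg3, Grb10, Plagl1, Igf2r and Mest. All 10 symbols were found, and their reads were followed through 8 bone marrow fractions at 2 ages. The marrow was that of female C57BL/6 mice, with no treatment given in the labels, which were 10 weeks (Young) or 20 months (Aged) old. Each combination of fraction and age had 2 libraries, which makes 16 groups and 32 libraries, with total counts of 11237384 to 17723245.

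The fractions were sorted by flow cytometry on the surface markers given in the labels. Within IL-7- Lin- Sca-1+ c-kit+ cells, HSCs were CD34- CD150+ CD48- Flt3-, MPP1 CD34+ CD150+ CD48- Flt3-, MPP2 CD34+ CD150+ CD48+ Flt3-, MPP3 CD34+ CD150- CD48+ Flt3- and MPP4 CD34+ CD150- CD48+ Flt3+. GMPs and MEPs were IL-7- Lin- c-kit+ cells that were Sca-1-, the GMPs FcgR+ CD34+ and the MEPs FcgR- CD34-, and CLPs were IL-7+ Lin- with low Sca-1 and low c-kit. HSCs are the stem cells, MPPs are multipotent progenitors, and GMPs, MEPs and CLPs are progenitors of the granulocyte and macrophage, megakaryocyte and erythroid, and lymphoid lineages. The duplicates are described once as repeat sorts of pooled marrow and elsewhere as biological, so errors and p-values may cover only technical spread.

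An imprinted gene is transcribed mainly from the copy inherited from one parent, because DNA methylation laid down in the germ line differs between the parental copies. Many such genes act on fetal growth: Igf2 is a growth factor, Igf2r is the receptor that takes it into the cell for breakdown, and Grb10 is an adaptor that dampens signals from the insulin and IGF1 receptors. Several are known to be expressed in the most primitive blood stem cells and to fall as these cells differentiate, and the H19 and Igf2 region and the Dlk1 and Meg3 region have been linked to stem cell quiescence. The libraries did not separate the parental copies, so the values are the sum of both, and nothing here measures imprinting itself.

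The members lie on 6 chromosomes, and 2 pairs are close neighbours (GENCODE M21, GRCm38). H19, a noncoding RNA, spans chr7:142575529-142578143 on the minus strand, 72622 bp from Igf2 at chr7:142650766-142666816, also minus. Dlk1, which encodes a transmembrane protein related to Notch ligands, spans chr12:109452823-109463336 on the plus strand, 77664 bp from the noncoding RNA Meg3 at chr12:109541001-109571726. Ndn, which encodes the growth suppressor necdin, is a gene of 1 exon at chr7:62346569-62350262, and Peg3, a zinc finger gene, is at chr7:6703892-6730431. Grb10 is at chr11:11930508-12038683, Igf2r at chr17:12682406-12769664, Mest at chr6:30723547-30748465 and Plagl1, a zinc finger factor that restrains the cell cycle, at chr10:13060504-13131694.

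H19 and Igf2, which had fewer reads in aged than in young HSCs, also host miRNAs, which are shown because they are further products of these loci. The mature forms were not measured. In the RefSeq sequences below (GRCm38.p6, minus strand of chromosome 7) capitals mark the seed, bases 2 to 8, and no 2 of the 4 share a seed. The miR-675 arms lie in an exon of H19, at chr7:142577112-142577133 for 5p and chr7:142577078-142577099 for 3p. The miR-483 arms lie in an intron of Igf2, at chr7:142654968-142654989 for 5p and chr7:142654932-142654952 for 3p.
mmu-miR-675-5p: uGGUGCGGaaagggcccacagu
mmu-miR-675-3p: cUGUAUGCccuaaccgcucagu
mmu-miR-483-5p: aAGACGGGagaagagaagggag
mmu-miR-483-3p: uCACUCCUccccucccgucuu

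Promoters of Dlk1 and Ndn are shown because these members differed with age in opposite directions in the MPPs. CpG dinucleotides, where DNA methylation is written, are marked, but methylation was not measured. Whether these promoters hold an imprint or bear on the age differences was not tested. Each is a window of 300 bases that holds the RefSeq start (GRCm38.p6), 5′ to 3′ with CpG in capitals: Dlk1 at chr12:109452573-109452872, plus strand, and Ndn at chr7:62348027-62348326, plus strand, which starts inside the longer GENCODE model of Ndn. The Dlk1 window held 9 CpG and the Ndn window 11, where the median of 32851 promoters of this length was 7. Across the other members with an entry the count was 1 to 45, highest at the first Grb10 promoter and 34 at Igf2r. The 8 letters GGGGCCCC, which read the same on both strands and are a site described for the Plagl1 protein, stood in the Peg3 window alone among the members' promoters and in 1.08% of all promoters.
Dlk1: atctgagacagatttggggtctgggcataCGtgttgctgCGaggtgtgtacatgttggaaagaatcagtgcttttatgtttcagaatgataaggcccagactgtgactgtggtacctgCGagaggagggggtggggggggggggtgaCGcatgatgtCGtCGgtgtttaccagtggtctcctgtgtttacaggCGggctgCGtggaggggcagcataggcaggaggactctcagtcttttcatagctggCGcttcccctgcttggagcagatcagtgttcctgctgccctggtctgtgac
Ndn: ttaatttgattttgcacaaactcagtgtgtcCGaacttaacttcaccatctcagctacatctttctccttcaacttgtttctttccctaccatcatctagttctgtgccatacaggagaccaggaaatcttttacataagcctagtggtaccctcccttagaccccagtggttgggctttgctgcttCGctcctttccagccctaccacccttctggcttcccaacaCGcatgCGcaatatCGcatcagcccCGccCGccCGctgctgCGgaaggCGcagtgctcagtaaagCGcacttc

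Members at useful depth were few. Grb10 and Igf2r had reads in all 32 libraries, Ndn in all but 1 and Dlk1 in all but 3, while H19 had reads in 5 libraries and lacked them in 27. A filter on low counts kept 14154 genes and 9 of the 10 members. Mest, which encodes a protein of the hydrolase family, did not pass it and was not tested. H19 and Plagl1 passed through the young HSC libraries alone and Meg3 and Igf2 through HSC libraries of both ages, so that 5 of the 9 (Dlk1, Ndn, Peg3, Grb10 and Igf2r) would have passed without any HSC library. A higher level of the other 4 in HSCs, or in young HSCs, is therefore partly set by the filter and is given as counts. A count of 0 allows up to 3 counts, or 0.169 to 0.267 CPM (the count scaled to the library's total) depending on the library, and this limit covers counting error alone. Fold changes are log2 values with their standard error (SE) from edgeR's quasi-likelihood test, and a gene is called at a Benjamini-Hochberg adjusted p under 0.01, the cut-off that the study used. Less RNA per cell and fewer cells carrying the transcript cannot be told apart in these sorted populations.

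Erythroid, neutrophil and B lineage markers were highest where the gates would place them, though not confined to them, and megakaryocyte markers were not. Summed over each list, erythroid genes reached 2310 to 2470 CPM in MEPs, neutrophil granule genes 71600 to 74500 CPM in GMPs, and B lineage genes 1160 to 2510 CPM in CLPs. Megakaryocyte genes summed to 98.5 and 104 CPM in young MEPs against 383 and 370 in young HSCs. In aged cells they were at 61.6 and 68.2 against 607 and 634 CPM. Young CLPs also held basophil and mast cell genes at 1710 and 1750 CPM (aged 8.28 and 15.7), neutrophil genes at 1740 and 1770 (aged 294 and 328) and macrophage genes at 195 and 212 (aged 5.92 and 5.15). Il7r, the receptor behind the IL-7 gate, was at 0 in young HSCs. It had reads in both libraries of young MPP2, MPP3 and MPP4, which were also gated IL-7-. No 2 libraries of a group held identical counts.

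The first question was where along the hierarchy these genes are expressed. In young marrow 8 of the 10 members had their highest mean level in HSCs, where 26% of all genes tested peaked. For H19, Igf2, Meg3 and Plagl1 this is partly set by the filter, so nothing is read from that count. Among the 5 that passed the filter without HSC libraries, 4 peaked in HSCs, though Peg3 overlapped MPP1. The 26% is over all genes tested, not over genes that would pass without HSC libraries. The exceptions were Igf2r, highest in MPP4, and Mest, highest in MPP3. In aged marrow 6 members peaked in HSCs, beside 28.5% of genes tested, with Igf2, Meg3 and Plagl1 again among them. Of these 6, Plagl1 was at 0.265 CPM in HSCs and 0.264 in GMPs, and Peg3 and Grb10 overlapped MPP1. Dlk1, H19 and Mest had their highest mean in MPP1. For H19 that mean rested on 2 and 0 counts, and the MPP1 libraries of Dlk1 and Mest overlapped those of HSCs. The levels of all members across the 16 groups are drawn as a map.

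**Figure D1:**
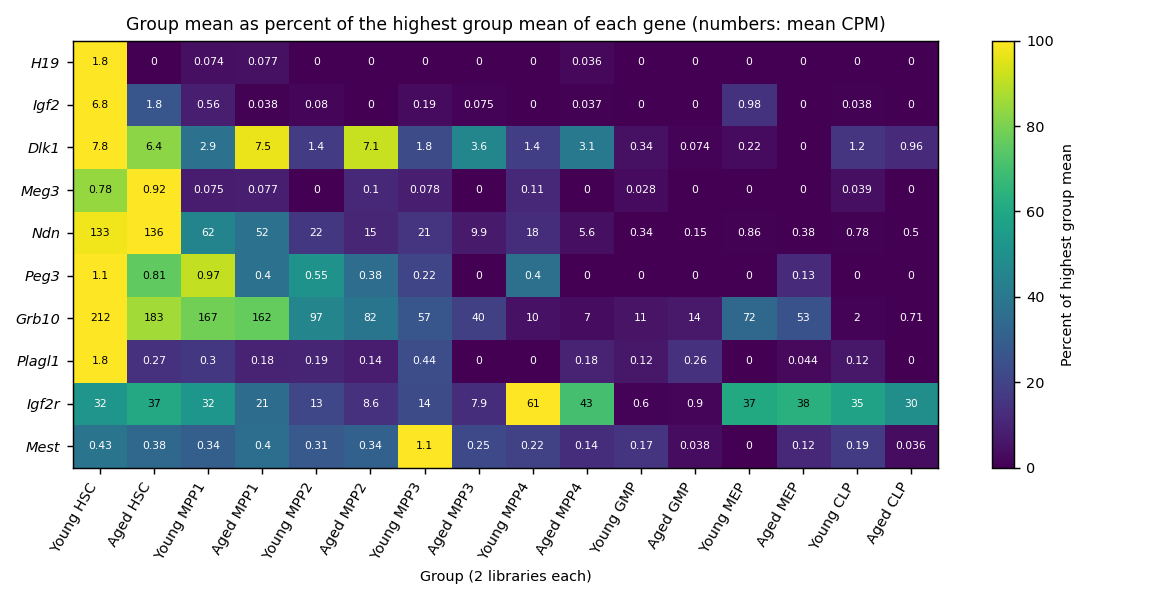
Rows are the 10 genes and columns the 16 groups of 2 libraries. Color is the group mean as percent of the highest group mean of the gene, and the printed numbers are the mean CPM. For 8 genes the young HSC column is brighter than every other young column, while Igf2r is brightest in young MPP4 (60.6 CPM) and Mest in young MPP3 (1.11 CPM).

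Ndn and Grb10 were the most abundant members per length of transcript, at 35.9 and 23.3 RPKM in young HSCs. Igf2r followed at 3.41, Dlk1 at 1.37, Igf2 at 1.18 and H19 at 0.71, with Plagl1 at 0.236, Mest at 0.108, Peg3 at 0.0805 and Meg3 at 0.043 RPKM. These values used the merged exon length of GENCODE M21 and order the genes within a group only.

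Ndn stepped down at each stage of the hierarchy. The 2 young HSC libraries held 129 and 136 CPM, those of MPP1 62.3 and 60.7, of MPP2 20.9 and 22.8, of MPP3 22.7 and 19.6, and of MPP4 16.6 and 18.7, while GMPs, MEPs and CLPs held at most 1.04 CPM. Of neighbours in this order, MPP2 and MPP3, MEPs and CLPs, and CLPs and GMPs had overlapping libraries. Averaged over both ages, HSCs exceeded MPP1 by 1.28 on the log2 scale (SE 0.129, adjusted p = 5.54e-08) and GMPs by 8.79 (SE 0.24, adjusted p = 1.09e-18).

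Grb10 had a shallower gradient and a second high level in MEPs. The young HSC libraries held 228 and 196 CPM, those of MPP1 171 and 162, of MPP2 99.4 and 94.1, of MPP3 61.2 and 52.4, and of MPP4 9.71 and 10.8. The MEP libraries held 72.4 and 71.3 CPM, which lay above both MPP3 libraries, whereas GMPs held 10.8 and 10.9 and CLPs 2.6 and 1.46. HSCs exceeded MPP4 by 4.48 on the log2 scale (SE 0.126, adjusted p = 1.07e-17) and MEPs by 1.5 (SE 0.105, adjusted p = 1e-11), and the difference from MPP1 was 0.29 (SE 0.101, adjusted p = 0.0255), not called.

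Igf2r followed another order. The 2 young MPP4 libraries held 70 and 51.2 CPM, MEPs 31.7 and 41.7, CLPs 33.2 and 36.6, MPP1 31.2 and 32.4 and HSCs 30.7 and 32.8, while MPP3 and MPP2 lay between 12.2 and 15.1 and GMPs at 0.748 and 0.451. MEPs and CLPs, MPP1 and HSCs, and MPP3 and MPP2 did not separate. HSCs were lower than MPP4 by 0.64 on the log2 scale (-0.64, SE 0.142, adjusted p = 0.000476) and higher than GMPs by 5.14 (SE 0.223, adjusted p = 3.42e-15). The antisense RNA Airn overlaps Igf2r, and without strand their reads cannot be told apart. Airn itself had 20 and 24 counts in young HSCs and 21 and 22 in aged HSCs.

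H19, Igf2, Meg3 and Plagl1 in young marrow were found mainly in HSCs. Igf2 had 65 and 110 counts in young HSCs, 23 and 8 in young MEPs, 9 and 6 in young MPP1, and at most 3 in any other young library. HSCs held 78.5% of its level summed over the 8 young fractions. Meg3 had 8 and 12 counts in young HSCs and 0 to 2 in every other young library, and H19 had 29 and 13 counts in young HSCs, 0 and 2 in young MPP1 and none in the other young libraries.

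Dlk1 in young marrow was highest in HSCs, with 80 and 120 counts (7.11 and 8.44 CPM). MPP1 held 32 and 46 counts, and MPP2, MPP3 and MPP4 13 to 28, where both MPP3 libraries lay above both of MPP2 and MPP4 overlapped each. CLPs held 17 and 14, GMPs 6 and 6, and MEPs 5 and 2. Plagl1 had 13 and 36 counts in young HSCs against 0 to 7 elsewhere. Peg3 had 13 and 14 in young HSCs, 17 and 9 in MPP1 and 9 and 5 in MPP2, with none in GMPs, MEPs or CLPs, and HSCs held 33.3% of its summed level.

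**Figure D2:**
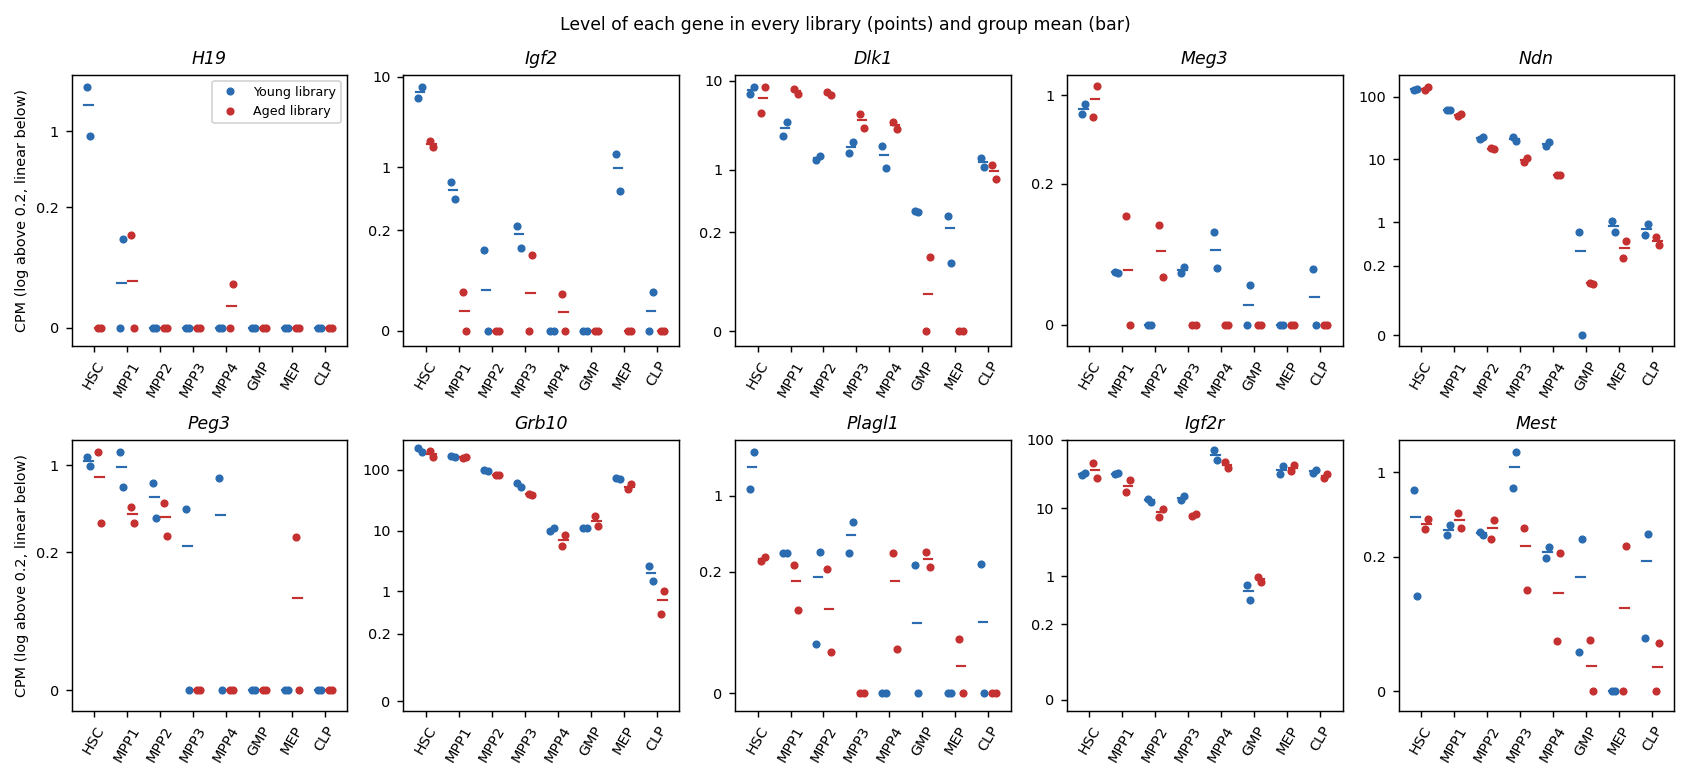
Each panel is 1 gene, with the 8 fractions on the x axis and CPM on the y axis, which is logarithmic above 0.2 CPM and linear below. Points are libraries (blue Young, red Aged, 2 per group) and bars are group means. Ndn and Grb10 exceed 100 CPM in HSCs, and the red points of Dlk1 lie above the blue ones in MPP1 to MPP4.

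Comparisons of HSCs with each other fraction, averaged over both ages, were read over the members that passed the filter without HSC libraries and held a count in each of the 4 groups compared, beside all genes of which the same was true. Of 5 such members 1 was higher in HSCs than in MPP1 (Ndn), where 16.2% of genes were, and 4 of 5 were higher than in MPP2 (27.2%), Peg3 being the exception. Dlk1, Ndn, Grb10 and Igf2r, the 4 left in most other comparisons, were all higher in HSCs than in MPP3 (24.4% of genes) and GMPs (34%). Against MPP4, 3 of 4 were higher (26.6%) and Igf2r was lower (28.3%). Against CLPs 3 of 4 were higher (32.5%), and against MEPs 2 of 3, Ndn and Grb10 (40.3%). In the aged libraries alone, a setting chosen after the values were seen, Dlk1 no longer stood higher in HSCs than in MPP2, with a difference of -0.15 (adjusted p = 0.76), where the young libraries alone gave 2.49 (adjusted p = 3.74e-05, 16.1% of genes higher in HSCs).

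The second question was how these levels differ with age in HSCs. None of the 9 members tested was called in HSCs, where 5.4% of genes were (edgeR). At an unadjusted p under 0.05 the count was 3 of 9, beside 23.8% of genes. These 3 members, H19, Igf2 and Plagl1, were lower in both aged libraries than in either young one, as were 20.2% of genes tested. DESeq2 called 0, but it gave no adjusted p in HSCs for these 3, Meg3 or Peg3 and so could not call them. Since H19 and Plagl1 were in the tested set through young HSCs alone, these counts are a description and nothing is read from them.

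H19 had 29 and 13 counts in the young and 0 and 0 in the aged HSC libraries. Its level of 1.75 ± 1.18 CPM (SD, n = 2) in young HSCs was at least 7.58-fold higher than the floor of 3 counts per library in aged HSCs, at an adjusted p of 0.0447. Without the first young library the bound was 3.97-fold. Igf2 had 65 and 110 counts in young and 23 and 24 in aged HSCs, a difference of -1.87 on the log2 scale (SE 0.699, adjusted p = 0.108). Plagl1 had 13 and 36 counts in young and 3 and 4 in aged HSCs (-2.72, SE 0.953, adjusted p = 0.0798), so aged libraries were near the floor. The neighbours H19 and Igf2 were thus low in the same pair of aged libraries, and neither passed the threshold.

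Meg3 did not separate by age in HSCs, with 8 and 12 counts in young and 8 and 17 in aged libraries (0.3, SE 0.799, adjusted p = 0.895). Its neighbour Dlk1 had 80 and 120 counts in young and 51 and 124 in aged HSCs (-0.21, SE 0.35, adjusted p = 0.799), so the ages overlapped. Ndn, the most abundant of these members per length, was at 129 and 136 CPM in young and 128 and 144 CPM in aged HSCs (0.08, SE 0.178, adjusted p = 0.869). Grb10 was at 228 and 196 against 206 and 161 CPM (-0.17, SE 0.143, adjusted p = 0.538), Igf2r at 30.7 and 32.8 against 45.6 and 27.5 CPM (0.24, SE 0.203, adjusted p = 0.543), and Peg3 at 13 and 14 against 15 and 5 counts (-0.4, SE 1.09, adjusted p = 0.902). Mest held 8 and 2 counts in young and 4 and 6 in aged HSCs.

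**Figure D3:**
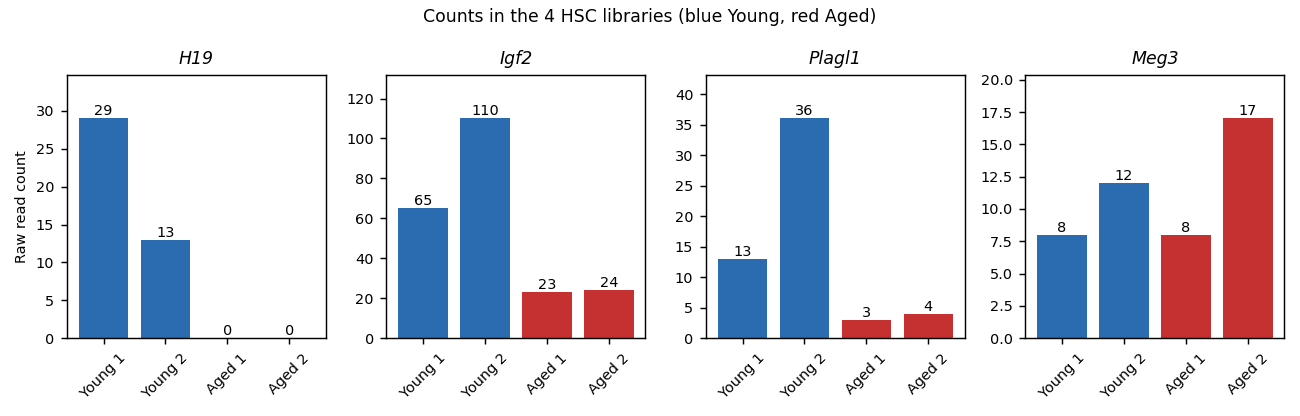
Bars are the raw read counts of H19, Igf2, Plagl1 and Meg3 in the 4 HSC libraries (blue Young, red Aged), with the count printed on each bar and the y axis starting at 0. H19 is at 0 in both aged libraries, Igf2 and Plagl1 are lower in both aged than in both young libraries, and Meg3 overlaps.

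Markers of other cells were followed beside these values. In HSCs the 11 stroma genes summed to 86.7 to 108 CPM in young and 108 to 117 CPM in aged libraries, with Lum at 0 at both ages and Lepr at 0 in young HSCs. The 6 endothelial genes summed to 135 to 147 and 128 to 135 CPM, with Cdh5 at 0 at both ages. The 9 macrophage genes were all detected and summed to 106 to 118 CPM in young and 66.3 to 69.5 CPM in aged HSCs, lower with age as were H19, Igf2 and Plagl1. Neutrophil genes summed to 286 to 303 CPM in young and 628 to 782 CPM in aged HSCs and megakaryocyte genes to 370 to 383 and 607 to 634 CPM. The part of these lists in the members' values was not tested.

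Among the MPPs the age difference of Dlk1 was upward. In MPP2 it rose from 16 and 19 counts (1.28 and 1.44 CPM) in young to 105 and 101 counts (7.39 and 6.84 CPM) in aged libraries. The difference was 2.43 on the log2 scale (SE 0.4, adjusted p = 0.00036), and it was the 1 member of 9 called in MPP2, where 7.81% of genes were called. The call was lost without the first young MPP2 library (adjusted p = 0.0127). Aged libraries also lay above young ones in MPP1, with 32 and 46 against 105 and 102 counts (1.41, SE 0.368, adjusted p = 0.0138), as did 31.1% of genes tested. In MPP3 the counts were 21 and 25 against 61 and 39 (1.03, SE 0.397, adjusted p = 0.0648) and in MPP4 28 and 13 against 46 and 40 (1.19, SE 0.406, adjusted p = 0.0356).

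Averaged over MPP1 to MPP4, a comparison added after the values were seen, Dlk1 was higher in aged cells by 1.52 (SE 0.196, adjusted p = 2.19e-06). Outside the MPPs its aged libraries were not above the young ones: GMPs had 6 and 6 against 0 and 2 counts, MEPs 5 and 2 against 0 and 0, and CLPs 17 and 14 against 16 and 11. The age difference of Dlk1 was unequal among the 8 fractions in a single interaction test (adjusted p = 0.000438), in which 34.9% of genes and 2 of 9 members were called. In aged marrow MPP1 and MPP2 therefore reached levels of Dlk1, 7.55 and 7.12 CPM on average, that overlapped those of aged HSCs at 4.32 and 8.53 CPM. Meg3, its neighbour, had at most 2 counts in any MPP library at either age.

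Ndn moved the other way. In MPP4 it fell from 16.6 and 18.7 CPM in young to 5.56 and 5.63 CPM in aged libraries, by 1.57 on the log2 scale (-1.57, SE 0.226, adjusted p = 2.6e-05). In MPP3 it fell from 22.7 and 19.6 to 9.17 and 10.7 CPM (-1.05, SE 0.21, adjusted p = 0.000942). It was the 1 member of 9 called in each of these fractions, where 16.6% and 13.9% of genes were called. The remaining fractions below HSCs had smaller or less certain differences: 62.3 and 60.7 against 49.7 and 53.4 CPM in MPP1 (-0.21, adjusted p = 0.531) and 20.9 and 22.8 against 15 and 14.7 CPM in MPP2 (-0.5, SE 0.202, adjusted p = 0.0999). DESeq2 (adjusted p = 0.00189) and an edgeR fit of the 4 MPP2 libraries alone (adjusted p = 0.00376) did call Ndn lower in MPP2. MEPs had 17 and 10 against 3 and 6 counts, CLPs 8 and 12 against 8 and 6, and GMPs 12 and 0 against 2 and 2. In 6 of the 8 fractions both aged libraries lay below both young ones, as 7.23% of genes tested did in at least 6 fractions.

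The age difference of Ndn in HSCs exceeded its mean over MPP1 to MPP4 by 0.91 (SE 0.206, adjusted p = 0.00844), the 1 call among 4 members with a count in each of the 10 groups used, where 3.17% of such genes were called. The interaction test over the 8 fractions also called Ndn (adjusted p = 0.00207). Averaged over MPP1 to MPP4 its difference was -0.83 (SE 0.103, adjusted p = 8.84e-07). The call for HSCs against the MPPs was lost on leaving out any 1 of the 20 libraries it uses, with values of 0.76 to 0.98 and adjusted p up to 0.0598. The MPP3 call was also lost without the first young or the first aged MPP3 library (adjusted p up to 0.0197).

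**Figure D4:**
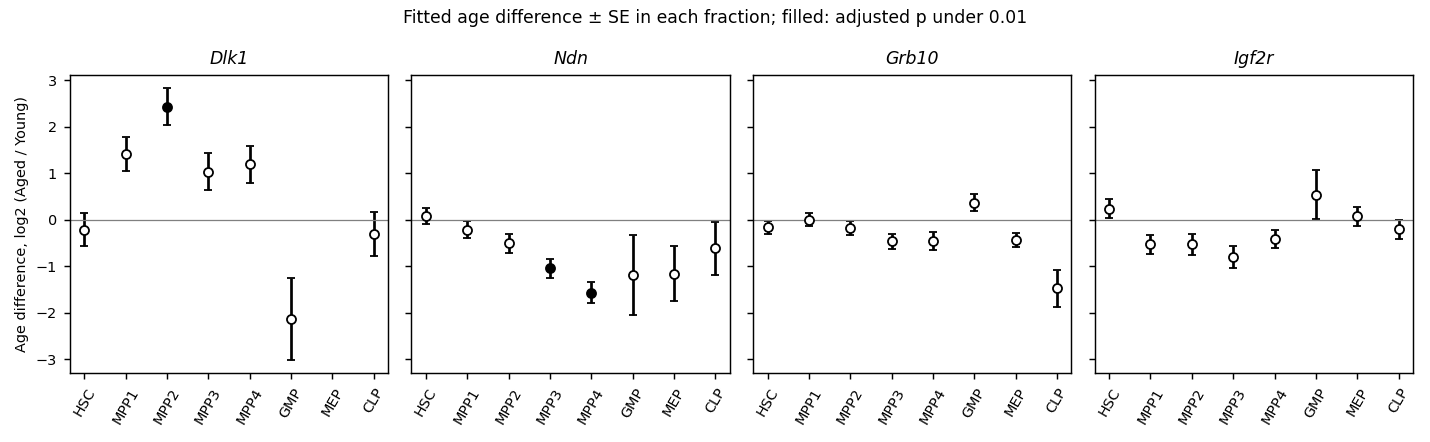
The y axis is the fitted age difference on the log2 scale, Aged over Young, and the x axis the 8 fractions, for Dlk1, Ndn, Grb10 and Igf2r. Points are estimates from 2 libraries per age, bars are ± SE, filled points passed an adjusted p under 0.01, and Dlk1 in MEPs is left out because both aged libraries held 0 counts. Dlk1 lies above 0 in MPP1 to MPP4 and is filled in MPP2 (2.43), and Ndn is filled in MPP3 (-1.05) and MPP4 (-1.57).

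Grb10 and Igf2r had smaller age differences. Grb10 fell by 0.35 on the log2 scale (-0.35, SE 0.0731, adjusted p = 0.000533) in the mean of the 8 age differences. In that mean 2 of 3 members with a count in each of the 16 groups were called, where 34.7% of such genes were, and Ndn was the other at -0.78 (SE 0.158, adjusted p = 0.000431). The third, Igf2r, was at -0.21 (SE 0.0973, adjusted p = 0.103). The Ndn value rests on 1 GMP library, since without the first young GMP library that group holds 0 counts and the mean becomes -0.12 (adjusted p = 0.955).

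By fraction, Grb10 was at 61.2 and 52.4 against 40.3 and 39.2 CPM in MPP3 (-0.47, SE 0.152, adjusted p = 0.0287), at 72.4 and 71.3 against 48.6 and 57.6 CPM in MEPs (-0.43, SE 0.149, adjusted p = 0.0308), and at 33 and 19 against 6 and 14 counts in CLPs (-1.48, SE 0.403, adjusted p = 0.0128). In GMPs the aged libraries were above the young ones, at 17.1 and 12 against 10.8 and 10.9 CPM (0.37, SE 0.178, adjusted p = 0.132). DESeq2 called Grb10 lower in MPP3, MEPs and CLPs. In CLPs the basophil and mast cell, neutrophil and macrophage sums given above were lower in the same aged libraries, as were erythroid genes, from 363 and 382 to 71 and 76.7 CPM, and their part in the Grb10 value was not tested. Igf2r was at 13.3 and 15.1 against 7.65 and 8.18 CPM in MPP3 (-0.8, SE 0.235, adjusted p = 0.0166, called by DESeq2 at 0.00256) and at 70 and 51.2 against 46.7 and 38.6 CPM in MPP4 (-0.42, SE 0.198, adjusted p = 0.127). Averaged over MPP1 to MPP4, Igf2r fell by 0.57 (-0.57, SE 0.109, adjusted p = 0.000183) and Grb10 by 0.28 (-0.28, SE 0.0808, adjusted p = 0.00715). With Dlk1 and Ndn, the 4 members with a count in each of the 8 groups were all called there, where 39.1% of such genes were. The Grb10 call in this average was lost on leaving out 14 of the 16 libraries in turn (adjusted p up to 0.0746).

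Markers of macrophages were also lower with age in all 4 MPP fractions, and those of non-hematopoietic cells to differing extents. The 9 macrophage genes summed to 79.7 to 220 CPM across young and 22.4 to 70.2 CPM across aged MPP1 to MPP4 libraries, with C1qa, C1qb and C1qc detected at both ages. The 11 stroma genes went from 218 and 218 to 101 and 103 CPM in MPP3 and from 196 and 189 to 118 and 122 CPM in MPP2. In MPP4 they were at 102 and 92.1 against 88.1 and 87 CPM, and in MPP1 at 103 and 97.3 against 92 and 91.7. In aged MPP3 and MPP4 6 of the 11 were at 0. The 6 endothelial genes went from 105 and 107 to 43.7 and 46.4 CPM in MPP3 and from 44.3 and 39.9 to 18 and 17.3 CPM in MPP4. The part of these sums in the values of Ndn, Igf2r, Grb10 and Dlk1 was not tested.

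In the committed progenitors 1 of 9 members was called. Igf2 in MEPs went from 23 and 8 counts in young to 0 and 0 in aged libraries, at least 3.8-fold lower (adjusted p = 0.00529), where 20.8% of genes were called. Without the first young library the bound was 2.14-fold. The call was lost without the first young or either aged MEP library (adjusted p up to 0.0447), and Igf2 did not pass the filter of a fit of the 4 MEP libraries alone. B lineage genes summed to 174 to 184 CPM in young and 0.412 to 1.16 CPM in aged MEPs, and macrophage genes to 12.6 to 15.1 and 0.801 to 1.65 CPM, and their part in the Igf2 value was not tested. The stroma genes summed to 3.64 to 5.81 CPM in young and 1.81 to 2.58 CPM in aged MEPs, with 8 and 9 of the 11 at 0. No member was called in MPP1 (6.8% of genes called), GMPs (18.9%) or CLPs (10.4%) by edgeR. At an unadjusted p under 0.05, 3 of 9 members stood beside 25.1% of genes in MPP1. In GMPs 1 of 9 stood beside 39.1% of genes, and in CLPs 1 of 9 beside 31.2%. DESeq2 called Dlk1 in MPP1, Grb10 in CLPs and no member in GMPs, but gave no adjusted p for H19, Meg3 or Plagl1 in these fractions.

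Members at low depth gave little by age elsewhere. Peg3 held 17 and 9 counts in young and 6 and 5 in aged MPP1, and 12 and 0 against 0 and 0 in MPP4. Plagl1 held 4 and 7 counts in young and 0 and 0 in aged MPP3, at least 2.02-fold lower (adjusted p = 0.0417, not called; 1.37-fold without the second young library). Igf2 held 9 and 6 counts in young and 1 and 0 in aged MPP1, a ratio of young to aged of 15.4 with a counting interval of 2.37 to 648 (exact binomial, 95%, adjusted p = 0.082). Mest held 10 and 18 counts in young and 5 and 2 in aged MPP3, a ratio of 4.34 (1.85 to 11.8). Copg2 overlaps Mest on the opposite strand, so these reads cannot be told apart from those of Copg2.

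The genes around the members were counted on lists. Of 58 other imprinted genes 37 were tested and 24 held a count in each of the 16 groups. Of these, 3 rose and 8 fell in the mean of the 8 age differences, where 20.2% of such genes rose and 14.5% fell, with a median of -0.188 where all such genes had 0.0107. Peg13, a noncoding RNA, fell by 0.58 (-0.58, SE 0.0527, adjusted p = 2.05e-08) and the tetraspanin Cd81 by 0.21 (-0.21, SE 0.026, adjusted p = 1.05e-06), as did the ubiquitin ligase Ube3a by 0.24 (-0.24, SE 0.0373, adjusted p = 3e-05). Osbpl5, a lipid transfer protein, had 29 and 25 counts in young and 0 and 0 in aged MEPs, so no mean is given for it. In HSCs 1 rose and 1 fell, where 3.74% of genes rose and 1.66% fell. Atp10a, a phospholipid flippase, had 641 and 756 counts in young and 1218 and 1231 in aged libraries (0.81, SE 0.125, adjusted p = 0.000149), and Peg13 had 1678 and 2399 against 1056 and 1158 (-0.87, SE 0.131, adjusted p = 0.00012).

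Of 35 genes of IGF and insulin signalling 30 were tested and 24 held a count in each of the 16 groups. Of these, 2 rose and 6 fell in the mean of the 8 age differences (median -0.106). Among all genes with such counts 20.2% rose and 14.5% fell. Foxo1, a transcription factor restrained by this pathway, fell by 0.59 (-0.59, SE 0.0462, adjusted p = 2.29e-09), and the adaptor Irs2 by 0.74 (-0.74, SE 0.077, adjusted p = 1.22e-07). Igfbp4, which binds IGFs outside the cell, was at -0.31 (SE 0.0343, adjusted p = 3.02e-07). The ligand Igf1 was at 0 in aged GMPs and MEPs, so no mean is given for it. In HSCs 3 fell and 0 rose, of 30 tested, where 1.66% of genes fell and 3.74% rose. Igf1 went from 157 and 188 counts in young to 15 and 10 in aged HSCs (-3.76, SE 0.624, adjusted p = 0.000476). Igf2bp2, which encodes a protein that binds Igf2 mRNA, went from 544 and 581 to 96 and 121 (-2.39, SE 0.345, adjusted p = 7.5e-05), and the adaptor Shc1 was at -0.31 (SE 0.0667, adjusted p = 0.00392). Macrophages are known to make Igf1, and the macrophage genes given above were lower in the same aged HSC libraries, a part that was not tested.

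Of 19 genes of imprint maintenance 17 were tested and 15 held a count in each group. Of these, 3 rose and 2 fell in the mean of the 8 age differences (median 0.0114). Among all genes with such counts 20.2% rose and 14.5% fell. Dnmt1, the maintenance DNA methyltransferase, rose by 0.43 (SE 0.03, adjusted p = 3.69e-10), its partner Uhrf1 by 0.28 (SE 0.0219, adjusted p = 2.17e-09) and the corepressor Trim28 by 0.12 (SE 0.0319, adjusted p = 0.00581), while the de novo enzyme Dnmt3a fell by 0.2 (-0.2, SE 0.0337, adjusted p = 6.05e-05). In HSCs 2 of the 17 tested rose and 2 fell, where 3.74% of genes rose and 1.66% fell. Dnmt1 had 2015 and 2319 counts in young and 3058 and 3423 in aged libraries (0.58, SE 0.086, adjusted p = 0.00011), Uhrf1 was at 0.68 (SE 0.0636, adjusted p = 2.87e-07), and Dnmt3a at -0.53 (SE 0.0964, adjusted p = 0.00079).

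Of 7 fetal growth partners 6 were tested and 3 held a count in each group, of which 1 fell in the mean of the 8 age differences: Hmga2, a chromatin protein of fetal stem cells, by 1.4 (-1.4, SE 0.17, adjusted p = 9.7e-07). None of these 6 was called in HSCs (edgeR), where 5.4% of genes were. Of 15 partners of the members' proteins 13 were tested and 10 held a count in each group. Of these, 2 rose and 3 fell in that mean (median -0.013). Among all genes with a count in each group 20.2% rose and 14.5% fell in it. The necdin partner E2f4 was at 0.29 (SE 0.0235, adjusted p = 3.24e-09) and Trp53, a further partner of necdin, at 0.18 (SE 0.0331, adjusted p = 0.00012). Siah1a, a ubiquitin ligase, was at -0.38 (SE 0.0335, adjusted p = 1.33e-08), and Nedd4, a ubiquitin ligase that binds Grb10, at -0.13 (SE 0.0265, adjusted p = 0.000313). In HSCs 2 of the 13 tested fell, where 1.66% of genes did. Hes1, a target of Notch signalling, fell from 1424 and 1885 to 979 and 1183 counts (-0.61, SE 0.114, adjusted p = 0.00141), and Siah1a by 0.45 (-0.45, SE 0.0926, adjusted p = 0.00287).

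The genes most like each member were ranked by Pearson r of log2 CPM over the 16 group means, as a description, since groups share fractions and low genes share zeros. Ndn was most like Rassf6 (r = 0.991), P3h4 (0.989) and Foxa3 (0.986), and Grb10 like Clstn3 (0.96), Sord (0.958) and Nt5c3 (0.958). Igf2r was most like Bcl11a (0.958), Smap2 (0.943) and Slc37a3 (0.939), and Dlk1 like Stau2 (0.937), Pigf (0.937) and Sdr39u1 (0.933). Meg3 was most like Twist1 (0.972), Dmrtc1a (0.968) and Akr1c19 (0.959). For the sparse members the list was Crybb1 and Trpm5 for H19 (0.942 and 0.931), Bmp8a, Cdc42ep5 and Mmp23 for Igf2 (0.917 to 0.885), Skint3, Xkr6 and Kazald1 for Peg3 (0.947 to 0.924) and Col8a2, Plekhg6 and Cradd for Plagl1 (0.872 to 0.803). Among members the highest values were Ndn with Peg3 (0.85), Ndn with Dlk1 (0.833) and Igf2 with Meg3 (0.778), and the neighbours reached 0.713 for H19 with Igf2. Grb10 and Igf2r had an r of 0.00569.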

How the data were processed

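RNA sequencing was made of 32 libraries from 8 sorted fractions of young and aged mouse bone marrow. The authors amplified cDNA with a template-switching kit, aligned reads with TopHat2 2.0.13 and Bowtie2 2.1.0 to mm10 and took gene counts from StringTie. Strand use was not stated and reads carried no molecular identifiers, so amplified copies were counted as reads. The authors deposited raw counts per gene, used here as whole numbers. A table of counts normalized by the authors with DESeq2, in which 20 columns were not matched to a library, and 8 tables of their own age comparisons were not used.

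The 16 groups were fitted together with edgeR 4.0.16 (R 4.3.3): TMM normalization, filterByExpr, 1 mean per group, quasi-likelihood F-tests, two-sided, with Benjamini-Hochberg adjustment over all genes within each contrast and a threshold of 0.01. The 16 residual degrees of freedom are shared. Contrasts were the age difference in each fraction, its mean over the 8 fractions and over MPP1 to MPP4, HSCs minus the mean of the MPPs, the interaction, and HSCs against each other fraction. Averaged contrasts, over fractions or over ages, are given only for genes with a count in each group used, since a group at 0 leaves no estimate. CPM are counts scaled to the library total. The procedure was tested on simulated data. DESeq2 1.42.0 and other settings were alternatives. The members and lists were chosen with earlier results of these data known. Genes named beyond the members are the 3 most like each member (1 of those for H19 is not reported here), and on each list the called genes with the lowest p, 4 in the mean of the 8 age differences and 3 in HSCs; Airn, Mest's neighbour Copg2 and marker genes were named after their values were seen.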

Additional observations from a re-analysis of the deposited data

Results flagged for a closer look

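A test of the difference between fractions singled out 3 results. The age difference of Dlk1 was unequal among the 8 fractions (interaction, edgeR adjusted p = 0.000438), higher in aged MPP1 to MPP4 and not in HSCs, GMPs, MEPs or CLPs. That of Ndn was also unequal (adjusted p = 0.00207), with a fall called in MPP3 and MPP4 and overlapping libraries in HSCs. Both aged libraries of Ndn also lay below both young ones in MPP1, MPP2, MEPs and CLPs. The age difference of Ndn in HSCs exceeded its mean over MPP1 to MPP4 by 0.913 on the log2 scale. This call (edgeR adjusted p = 0.00844) was lost on leaving out any 1 of its 20 libraries (adjusted p up to 0.0598). Without the first or the second aged MPP4 library the Ndn interaction reached an adjusted p of up to 0.0109.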

How the results depend on the processing

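Numbers of members called, over 323 alternative values, stayed within 1.5 times the main number in 277. At an adjusted p under 0.05 the number became 1 in HSCs, MPP1 and CLPs, 4 in MPP3, 2 in MPP4 and 3 in MEPs. It became 3 in HSCs minus the MPPs and 6 in HSCs against MPP1 (3 of the 9 tested at 0.01). The 1 in HSCs was H19 (edgeR adjusted p = 0.0447), which passed the filter through the young HSC libraries alone. The 6 include Igf2 and Meg3, which passed it through HSC libraries of both ages. The share of all genes called at 0.05 is not given, so nothing is read from these rises. With an absolute log2 change of at least 1 the number became 0 in the mean of the 8 age differences. It became 1 in the mean over MPP1 to MPP4 and 0 in HSCs minus the MPPs. DESeq2 gave 1 in MPP1 and CLPs, 2 in MPP2 and MEPs, 3 in MPP3 and 3 in HSCs minus the MPPs. A fit of the 4 libraries of a fraction gave 1 in MPP1, 2 in MPP2 and 0 in MEPs, where Igf2 did not pass its filter. The shares of all genes called with that minimum change, by DESeq2 or in these fits are not given, so nothing is read from these numbers. In the aged libraries alone, added after seeing the data, the difference of Dlk1 between HSCs and MPP2 turned to -0.15. The cause of these moves was not tested, beyond the fewer libraries or stricter rule that define them.

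Leaving out 1 library at a time gave 0 to 1 members in MPP2, MPP3 and MEPs, 1 to 2 in the mean of the 8 age differences, 0 to 2 in HSCs minus the MPPs, 1 to 3 in the interaction and 3 to 4 in the mean over MPP1 to MPP4. HSCs, MPP1, GMPs and CLPs stayed at 0. The Dlk1 call in MPP2 was lost without the first young MPP2 library (adjusted p = 0.0127), with values of 2.35 to 2.52. Among 992 alternative values of single calls 901 kept direction and side of the threshold, 90 lost the call and 1 turned direction.

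With replicate number as a replicate block, HSCs minus the MPPs gave 0 members (Ndn 0.91, adjusted p = 0.0107), and calls over all genes went from 426 to 461 there and from 764 to 758 in HSCs. The numbers showed no pairing of young with aged samples: deviations of same-numbered young and aged libraries within a fraction correlated at -0.0557 to 0.0704. These values cannot show whether a number marks the same pool across fractions within an age. DESeq2 size factors moved no number of members past 1.5 times. Depth limits H19, Igf2, Meg3, Peg3, Plagl1 and Mest, where a count of 0 allows up to 0.267 CPM.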
